A study of Drosophila melanogaster with 2 samples.

Results

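The gene tara is described here by the scrt-GFP peaks whose summits lay in its body or within 20 kb of it. It is on 3R, plus strand, at chr3R:16225651-16260329 (FBgn0040071, assembly dm6), and the region counted runs over 74679 bp. Of the 6407 peaks in the list that the authors thresholded by the irreproducible discovery rate (the optimal list), 27 had their summit there. The gene was chosen because earlier work on these peaks found it to be the most densely bound, so the number of peaks is a description with no test. Peaks were numbered P1 to P27 here, from left to right on the plus strand.

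The study profiled chromatin bound by the product of scratch (scrt), a Snail-family regulator that carries zinc fingers and is expressed in neurons, by chromatin immunoprecipitation and sequencing. Whole Drosophila melanogaster embryos of both sexes, collected 4 to 24 h after laying, came from a single transgenic line with GFP at the C terminus of scrt. Both samples, biological replicates 3 and 4, carry that transgene and form 1 group, so the design holds no comparison between conditions and only the agreement of the replicates can be described. A description among the labels calls both samples input controls, but their antibody field names scrt, and they were treated as scrt immunoprecipitations. In a whole embryo, binding in few cells and weaker binding in many cannot be told apart. Read depth is unknown, and Wilson 95% intervals on shares cover counting error only.

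The product of tara (taranis) is a nuclear protein with a SERTA domain, related to the TRIP-Br proteins of mammals. In Drosophila it behaves genetically as a trithorax-group gene, it promotes sleep together with Cyclin A, and it protects cell identity in regenerating wing discs. Snail-family zinc fingers bind E-boxes (CANNTG), of which CAGGTG is the classical one, and act mainly as repressors. CAACAGGTG is a longer form of the same site. The annotation gives tara 2 transcripts with separate starts and a shared last exon. The start of tara-RA is at 16225651 and that of tara-RB at 16242816, inside the large intron of tara-RA, and the shared exon 2 runs from 16256778 to 16260329 and holds nearly all of the coding sequence.

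The sequences below lie at strong sites of the locus and were picked for holding a searched motif. They are the 201 bp centred on the summits of the 5 strongest intronic or intergenic peaks that hold a searched motif, read 5′ to 3′ on the plus strand of the RefSeq Release 6 genome. Capitals mark copies, on either strand, of the 7 sequences searched. These were the E-box CAGGTG and its longer form CAACAGGTG, a second E-box, CAGCTG, the sequence GCAACA, which was frequent at scrt-GFP summits in earlier work on these peaks, the GAGA repeat GAGAGA, the Zelda site CAGGTAG and the Dref site TATCGATA. P8 is chr3R:16222390-16222590, P9 is chr3R:16224429-16224629, P14 is chr3R:16236895-16237095, P15 is chr3R:16239304-16239504 and P7 is chr3R:16221771-16221971.
P8: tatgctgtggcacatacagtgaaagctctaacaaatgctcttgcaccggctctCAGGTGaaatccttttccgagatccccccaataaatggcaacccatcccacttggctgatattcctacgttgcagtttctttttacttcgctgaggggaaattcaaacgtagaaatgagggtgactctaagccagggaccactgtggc
P9: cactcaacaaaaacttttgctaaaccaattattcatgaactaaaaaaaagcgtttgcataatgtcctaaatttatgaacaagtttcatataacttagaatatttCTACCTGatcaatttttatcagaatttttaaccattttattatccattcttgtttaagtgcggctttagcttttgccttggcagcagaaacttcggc
P14: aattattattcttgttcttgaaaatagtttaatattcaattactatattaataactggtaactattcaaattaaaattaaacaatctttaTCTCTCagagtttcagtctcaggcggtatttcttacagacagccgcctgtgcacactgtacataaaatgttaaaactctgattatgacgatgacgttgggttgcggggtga
P15: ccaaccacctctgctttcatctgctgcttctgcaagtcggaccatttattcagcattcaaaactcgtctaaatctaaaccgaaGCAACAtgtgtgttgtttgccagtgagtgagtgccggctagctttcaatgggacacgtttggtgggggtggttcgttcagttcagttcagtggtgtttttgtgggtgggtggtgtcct
P7: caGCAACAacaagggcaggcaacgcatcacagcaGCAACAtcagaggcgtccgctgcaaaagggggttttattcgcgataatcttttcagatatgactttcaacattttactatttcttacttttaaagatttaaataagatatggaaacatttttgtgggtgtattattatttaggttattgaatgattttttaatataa
In P8 the CAGGTG copy lay 44.5 bp from the summit. In P9 the CAGGTAG copy, the sequence that the early zygotic activator Zelda is known to bind, lay 7 bp from the summit on the minus strand. P14 held GAGAGA, the repeat bound by GAGA factor, 7.5 bp from its summit, and P15 held GCAACA 14.5 bp from its summit. The 2 GCAACA copies of P7 lay 95.5 and 63.5 bp away. P21, the fourth strongest peak at tara, held none of these sequences within 100 bp. P10, P13 and P23, also among the 10 strongest, held none either and were likewise passed over.

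The strongest binding at tara lay upstream of the gene and inside its large intron, not at its starts. In the optimal list P8 had a signal of 2483 (rank 124 of 6407), with its summit 3161 bp before the tara-RA start, in intergenic sequence. P9, 1122 bp before that start, had a signal of 1768 (rank 249). The strongest intronic peaks were P14, 11344 bp after the tara-RA start, with a signal of 1654 (rank 274), and P21, 22156 bp after it and 4991 bp after the tara-RB start, with a signal of 1233 (rank 485). These 4 peaks held 45.8% of the summed signal of the 27. Signal here is the authors' own enrichment value, and it was compared only within a list.

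Both replicates had these 4 sites. P8 had a signal of 952 (rank 242) in replicate 3 and 1554 (rank 67) in replicate 4, where it led the locus. P14 had 967 (rank 236) in replicate 3, where it led, and 695 (rank 375) in replicate 4. The replicates thus put P8 and P14 in opposite order. P9 had 829 (rank 316) and 954 (rank 199) in replicates 3 and 4. The signal of P21 was 553 (rank 620) in replicate 3 and 674 (rank 396) in replicate 4, with the same summit base in both and in the pooled list. For all 4 the replicate summits lay within 55 bp of the optimal one.

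**Figure D1:**
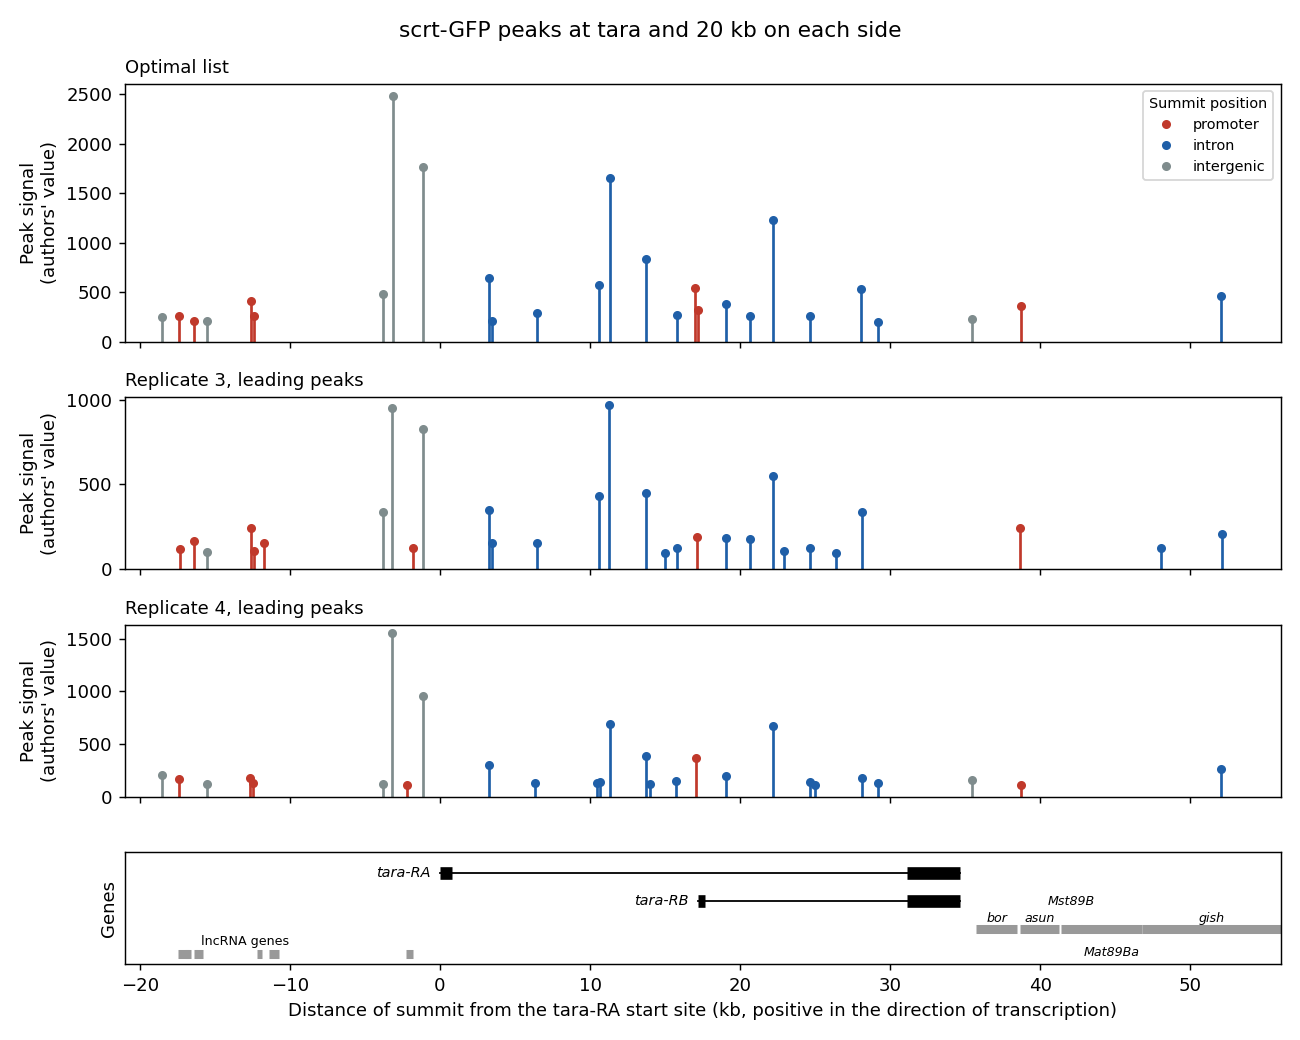
Peak signal (authors' value, each list on its own scale) against the distance of the summit from the tara-RA start in kb, for the optimal list, for the leading peaks of replicates 3 and 4, and with the gene models below. The tall peaks upstream of tara-RA (P8 and P9, signals 2483 and 1768 in the optimal list) and in its intron (P14 and P21, 1654 and 1233) stand at the same positions in both replicates.

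The next 6 peaks by signal were 4 in the intron, 1 at the start of tara-RB and 1 upstream. P15, 3412 bp before the tara-RB start, had a signal of 830 (rank 891) and ranked 842 in replicate 3 and 986 in replicate 4. P10, 3242 bp after the tara-RA start, had a signal of 643 and ranked 1213 and 1484. P13, 726 bp before P14, had a signal of 568 but ranked 911 in replicate 3 and 4462 in replicate 4. P17 at the tara-RB start had 540, with ranks of 2707 and 1082. P23, in the part of the intron nearest to exon 2, had 536, with ranks of 1303 and 3023. P7, 619 bp before P8, had 483, with ranks of 1292 and 5054. P15 and P10 thus ranked alike in the replicates, P13, P23 and P7 ranked better in replicate 3, and P17 in replicate 4.

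The 2 starts of tara differed in the optimal list. At the tara-RB start, P17 and P18 lay 157 bp before and 44 bp after the start, with signals of 540 and 324, and their peaks overlap. Replicate 3 had 1 peak there, between them, which both matched, while replicate 4 had a peak of rank 1082 matching P17 and one of only rank 14248 matching P18. At the tara-RA start there was no optimal summit within 500 bp. The pooled list had a peak 366 bp from it at rank 7982, below the 6407 kept, and the replicates had peaks 382 bp (rank 8975) and 325 bp (rank 7117) from it. So a summit near this start was listed in both replicates, but below the rank that the optimal list reached. The difference between the starts was not tested.

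The 200 bp before each start, also on the plus strand, are shown for comparison of a start with and one without an optimal peak (chr3R:16225451-16225650 for tara-RA and chr3R:16242616-16242815 for tara-RB). They were chosen after the peaks had been seen.
tara-RA: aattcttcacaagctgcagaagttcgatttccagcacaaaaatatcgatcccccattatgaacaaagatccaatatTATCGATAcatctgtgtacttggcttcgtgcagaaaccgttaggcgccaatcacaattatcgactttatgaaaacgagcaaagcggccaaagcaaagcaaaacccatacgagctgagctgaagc
tara-RB: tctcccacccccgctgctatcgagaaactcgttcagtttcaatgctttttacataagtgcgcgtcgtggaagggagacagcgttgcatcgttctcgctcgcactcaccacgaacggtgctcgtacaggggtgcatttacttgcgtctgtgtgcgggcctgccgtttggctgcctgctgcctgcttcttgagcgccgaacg
The tara-RA promoter held TATCGATA, the palindromic element bound by the replication-related factor Dref, with its first base 124 bp before the start. It was the single copy in the 74679 bp, where an average stretch of that length has 2.24 copies. Of 29374 annotated starts, 4.52% hold this sequence in the same 200 bp. The tara-RB promoter held none of the 7 sequences in its 200 bp, but this depends on where the stretch was cut. P17, the peak at that start, had 2 copies of GAGAGA within 100 bp of its summit. The nearest lay 48.5 bp from the summit, outside the 200 bp shown.

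By position, 15 of the 27 summits were in the body of tara, 9 upstream and 3 downstream. Of the 15, 13 were intronic and over 500 bp from a start, while P17 lay in the intron just before the first exon of tara-RB and P18 in that exon. Away from any transcription start by more than 500 bp, introns held 14 of the 27 (51.9%, 95% interval 34.0 to 69.3), P27 in gish among them, against 35.7% of all optimal summits. Intergenic sequence held 6 (22.2%, 10.6 to 40.8), against 13.4%. Summits within 500 bp of a start numbered 7 (25.9%, 13.2 to 44.7), against 48% of all optimal summits. Coding exons, UTRs and non-coding exons away from starts held 0 of the 27, against 2.93% of all, and a count of 0 of 27 allows a share of up to 11.1% (3 counts of 27), or 12.5% by the Wilson interval. Summits of 1 locus are not replicates, so these differences were not tested.

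Of the 7 promoter summits, 4 lay at non-coding RNA genes. P2, P3, P5 and P6 lay at the starts of long non-coding RNA genes in the upstream flank (406 bp from lncRNA:CR45640, 142 bp from lncRNA:CR45637, and 453 and 254 bp from lncRNA:CR45642), with signals from 203 to 413. P17 and P18 were at tara-RB. P26, with a signal of 360, lay 64 bp past the start of asun, an Integrator subunit gene, which is transcribed away from the neighbouring bor, an AAA ATPase gene. With protein-coding starts alone the promoter share was 11.1%.

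Summits were denser before and within the large intron of tara than after it. The upstream flank had 4.50 optimal summits per 10 kb, the intron before the first exon of tara-RB 4.89 (8 summits in 16.4 kb, P17 among them), and the intron after it 4.46 (6 in 13.4 kb). Exon 2, of 3552 bp, had 0 in the optimal list and 0 among the leading peaks of either replicate, with a single weak pooled summit at rank 14743, and the first exon of tara-RA had 0 as well. The downstream flank had 1.5 per 10 kb in all 3 lists. With 3 optimal summits in 20 kb, against 3.57 in an average stretch of 74679 bp, this flank was still denser than average. It holds bor, asun, the testis-expressed gene Mst89B, Mat89Ba, and the start of gish, a casein kinase I gene, of which Mst89B and Mat89Ba had no summit in the body or within 500 bp of a start.

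**Figure D2:**
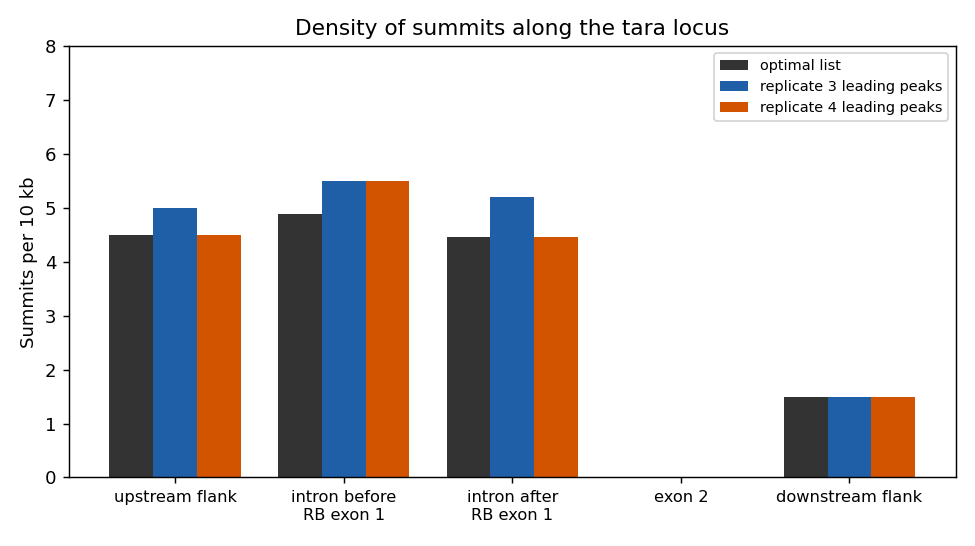
Summits per 10 kb in 5 segments of the tara locus, with bars for the optimal list and for the leading peaks of each replicate. The upstream flank and both stretches of intron lie between 4.46 and 5.50 in all 3 lists, the downstream flank is at 1.5, and exon 2 is at 0.

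The spacing of the 27 summits was uneven. Neighbouring summits were 199 to 13364 bp apart, with a median of 1936 bp. The median between neighbouring optimal summits in the genome was 7118 bp. A locus chosen for dense peaks has short gaps, so this difference restates the choice and is no separate trait. Of the 26 gaps, 3 were at most 500 bp, and in the genome 6.94% of gaps were that short. These were P5 to P6, P10 to P11 and P17 to P18. The smallest gap, 199 bp between P5 and P6, equalled the minimum over all optimal summits. How many other gaps have that length was not counted. Merging summits within 500 bp left 24 sites at tara, and merging within 1000 bp left 21. The 3 gaps over 5000 bp lay between P6 and P7, across the end of tara from P24 to P25, and from P26 to P27. P13 and P14, with P15 2409 bp further on, and P7, P8 and P9, before the tara-RA start, formed groups that held strong signals, while P21 stood 1532 and 2465 bp from weaker neighbours (signals of 259 and 257).

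Most tara peaks were of ordinary strength. The median signal was 360, with quartiles of 257 and 554, against 333, 244 and 564 over all optimal peaks. Of the 27, 4 were at rank 500 or better (14.8%, 95% interval 5.92 to 32.5), against 7.8% of all. The weakest, P24 in the intron, had a signal of 194 and rank 6364, close to the end of the list at 193. The deposited −log10 q-value stood at its ceiling of 4.02 for 22 of the 27, against 81.3% of all. Widths ran from 110 to 579 bp, and 14 peaks had the fixed width of 430 bp, a width shared by 39.8% of optimal peaks.

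At the limits of the region, P1 lay 18.5 kb before the gene (signal 248) and P27 17.4 kb after it (465). The nearest summits outside the limit were 20.2 kb before the gene, at mtSSB (461), and 20.4 kb after it, in gish (2409, rank 133). This last peak, at chr3R:16280529-16280943, was nearly as strong as P8 and is not among the 27. Counting to 50 kb on each side gave 30 summits, against 27 to 20 kb.

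The replicates agreed on most of the locus. Replicate 3 had 29 of its own 6407 best peaks at tara and replicate 4 had 27. Of the 29, 21 (72.4%, 95% interval 54.3 to 85.3) shared at least 1 bp with a leading peak of replicate 4, against 79% of all leading peaks of replicate 3. In the reverse direction 23 of 27 did (85.2%, 67.5 to 94.1), against 77% of all. Some of these peaks share a partner, so they are not independent as the intervals take them to be. More than 1 replicate 4 peak overlapped each of the replicate 3 peaks of ranks 842, 911 and 4740. Likewise, replicate 3 peaks of ranks 1213 and 3487 overlapped the same replicate 4 peak, of rank 1484. The leading peaks of replicate 3 without such an overlap had ranks from 3001 to 6309. Those of replicate 3 were split into 16 in the body, 10 upstream and 3 downstream, and those of replicate 4 into 15, 9 and 3.

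For the optimal peaks, which were chosen from the same replicates, agreement is a description only. Of the 27, 22 overlapped leading peaks of both replicates (81.5%, 95% interval 63.3 to 91.8), against 77.7% of all. P1, P24 and P25 lacked a leading peak in replicate 3, where their matches ranked from 9814 to 11897, and P3 and P20 lacked one in replicate 4, at ranks 22746 and 8168. P11, P12 and P18 are among the 22 only through another overlapping peak, since their matches of nearest summit in replicate 4 ranked 17813, 6902 and 14248. All 27 had a match in both full lists of 30000 peaks, which include background and from which the optimal list was derived. Between the replicates, 13 of the 27 peaks ranked better in replicate 3 and 14 in replicate 4. For 13 of the 27 the ranks differed by over 2 times. Across the 27 peaks, which share their libraries, the Spearman correlation of the replicate signals was 0.52. Summits were at the same place to within a median of 18 bp in replicate 3 and 10 bp in replicate 4, and within 50 bp for 22 and 23 of the 27. Matches in the full lists, rank differences, the signal correlation and summit distances are not given for all optimal peaks. None is therefore called particular to tara.

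**Figure D3:**
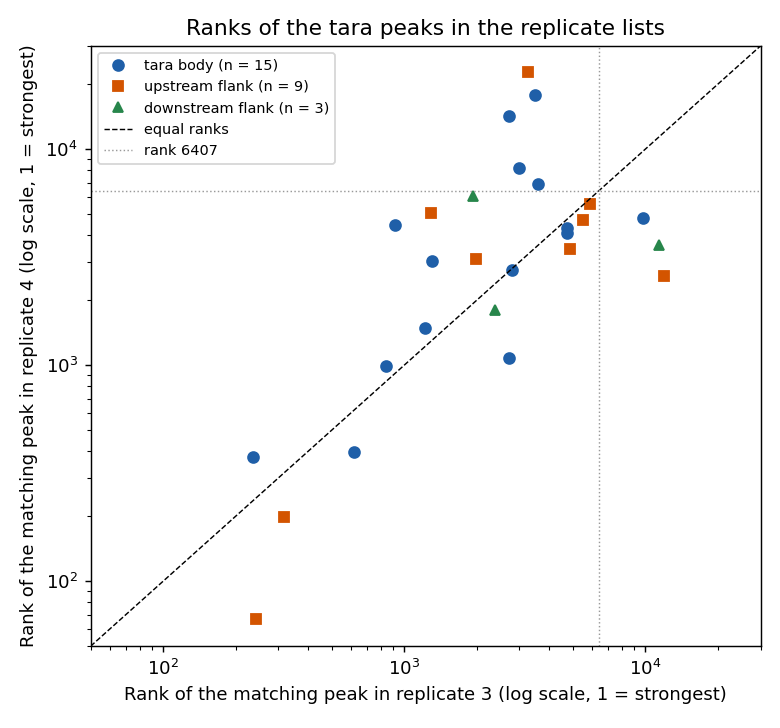
Rank of the matching peak in replicate 3 against that in replicate 4 for each of the 27 tara peaks (both axes logarithmic, 1 is the strongest), by position in the body or a flank, with a dashed line for equal ranks and dotted lines at rank 6407. The 4 strongest peaks lie at ranks 67 to 620 in both replicates, and the spread about the line is wider among the weaker peaks.

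Peaks below the optimal list were also counted at tara. The pooled list had 75 summits in the region, 48 of them below the optimal list, at ranks from 6604 to 29050. An average stretch of this length on the 6 chromosome arms holds 3.57 optimal summits and 13.2 pooled summits below the optimal list. The locus thus had 7.55 times the average of optimal summits and 3.65 times that of the weaker ones. It was chosen for its density of peaks, and both values come from the same pooled list, so the 3.65 is no separate support. These weaker peaks include background by the authors' own naming. Some overlap an optimal peak or one another, and they were counted without merging. Control signal and chromatin accessibility at tara were not analysed here, so their part in the density was not tested.

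Among 13945 protein-coding genes, tara had the most optimal summits in the body and 20 kb on each side, 27 against a median of 2 and 11 at the 99th percentile. After it came pum, an RNA-binding translational repressor gene, and scrt itself with 21 each, then shn, a zinc-finger gene of Dpp signalling, and ush, a GATA cofactor gene, with 20, and Tet, a dioxygenase gene, with 19. Per length the order changed: scrt had 4.19 summits per 10 kb and tara 3.62, and tara was second. In the gene body alone tara had 15 summits in 34.7 kb and ranked 6, level with Tet and mam. The genes with more were shn (18 in 58.3 kb), CG1677, kirre and sick (17 each, in 125, 394 and 162 kb) and sbb (16 in 79.1 kb). All 5 are longer than tara. In fixed windows of 50 kb, the one at tara held 22 and the fullest elsewhere 17. Windows shifted by 25 kb gave 17 at tara and up to 18 elsewhere.

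**Figure D4:**
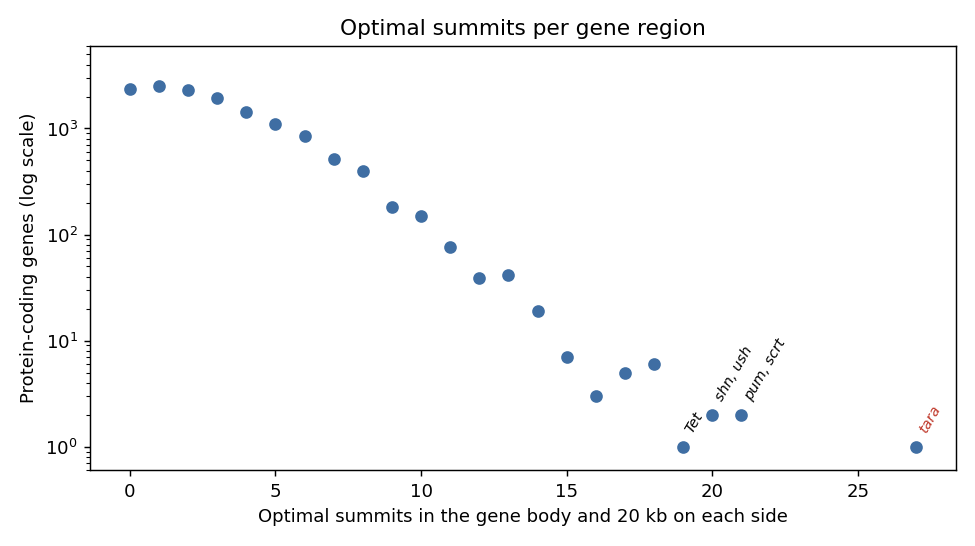
Number of protein-coding genes (logarithmic axis) by the number of optimal summits in the gene body and 20 kb on each side. The point for tara is at 27, and the next genes, pum and scrt, are at 21.

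The loci most like tara in make-up were found by the distance between the numbers of promoter, intronic and other summits, which are 7, 14 and 6 at tara, in the optimal list alone. The nearest was ush with 4, 13 and 3 (distance 4.36). Then came psq, a BTB transcription factor gene, with 4, 11 and 3, Eip75B, an ecdysone-induced nuclear receptor gene, with 4, 11 and 2, pum with 6, 15 and 0, and Smr, a corepressor gene, with 3, 9 and 6. The strongest peak was above the 2483 of tara at ush (7121, rank 4), Smr (4892, rank 20) and pum (3455, rank 56). At psq and Eip75B the strongest were below that of tara, at 912 and 1202. The locus of scrt, the next by number, had a different make-up of 2 promoter, 0 intronic and 19 other summits, with its strongest peak at 6216.

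The classical Snail-family E-box was found at P8 alone. CAGGTG was within 100 bp of 1 of the 27 summits, that of P8 (3.70%, 95% interval 0.657 to 18.3), against 7.68% of all optimal summits, a value inside that interval. The E-box CAGCTG was at 2 of the 27 (7.41%, 2.06 to 23.4), against 12.6%. CAACAGGTG was at 0 of 27, against 1.75% of all, and the Wilson interval for 0 of 27 reaches 12.5%. The whole region of 74679 bp held no copy of CAACAGGTG, where an average stretch of that length has 0.770 copies. It held 26 copies of CAGGTG, against an average of 32.5, and 1 of the 26 was within 100 bp of an optimal summit. That is 3.85% of the copies, where 7.26% of the bases of the region are as near to a summit. In the genome 0.919% of CAGGTG copies and 8.33% of CAACAGGTG copies are within 100 bp of an optimal summit. These genome shares cannot be set directly against the 3.85%, since optimal summits at tara were 7.55 times the average. Whether the share at tara differs from other loci was not tested.

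Of the other sequences, GCAACA and GAGAGA were the most frequent. GCAACA was at 9 of 27 (33.3%, 18.6 to 52.2), against 31.1%. GAGAGA was at 4 (14.8%, 5.92 to 32.5), against 14.3%, and at P27 in gish 8 overlapping copies made up a GA repeat. CAGGTAG was at 1 (3.70%, 0.657 to 18.3), against 1.05%, and TATCGATA at 0, against 2.45%. For each of the 7 sequences the share of all optimal summits lies inside the interval at tara. At least 1 of the 7 sequences was at 16 of the 27 (59.3%, 40.7 to 75.5), against 51.7% of all. The remaining 11 peaks had none, P21 and P10 among them. Median GC content within 100 bp was 43.8% at tara summits, from 28.4 to 55.7%, and 39.8% at all optimal summits, the highest at tara being at P17 and P18 by the tara-RB start.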

How the data were processed

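The deposited narrowPeak lists (assembly dm6) were used. Per the listing that accompanies them, peaks and background were called against control alignments for replicate 3, replicate 4 and their pool (30000 peaks each), and the optimal list of 6407 was derived from these by IDR. The optimal list was found to equal the first 6407 pooled peaks by signal. Column 7, the signal, is as deposited by the authors and has its own scale in each list, and the deposited −log10 q-value reaches a ceiling. Nothing read here states which peak caller, aligner or IDR threshold was used, or the depth. Leading peaks of a replicate are its best 6407 by signal.

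Summits (peak start plus offset) were placed with all transcripts of Ensembl release 115. Promoter means within 500 bp of a TSS, and other summits were placed by UTR, coding or non-coding exon, intron or intergenic sequence. A match in a replicate is the overlapping peak with the nearest summit. Motifs were searched on both strands within 100 bp of summits, and CAACAGGTG contains CAGGTG, so a copy of the first is counted for both. The RefSeq Release 6 genome was used, and 0 peaks ran past a chromosome end. Gene, members, motifs and alternatives were chosen with earlier results of these data known. The named genes were tara, the genes of its region, the 5 loci with the most summits and the 5 most alike. The named peaks were the 10 strongest, the weakest, and those at the limits. Others were named after their values were seen. Procedures were tested on simulated data. Software was pandas 2.3.3, matplotlib 3.10.9, scipy 1.17.1 and numpy 2.4.6 under Python 3.11.15.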

Additional observations from a re-analysis of the deposited data

How the results depend on the processing

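Counts and shares at tara were recomputed under 38 alternatives, and 22 kept them within 1.5 times (counts) or within 1 SD of the 2 replicates (position shares, spacing and rank) or the counting interval (overlap share). An SD of 2 values is a rough limit, so the tally of 22 depends on how close the replicates happened to be. Both gave rank 1, so any other rank fell outside. Their shares in introns of tara, 51.9% and 51.7%, were also nearly equal. The number of optimal summits was 15 without flanks, 14 among the 3203 optimal peaks of highest signal and 75 in the full pooled list. Windows of 25 kb held at most 12 at tara and up to 14 elsewhere. The rank of tara was 6 without flanks and 2 per 10 kb. The promoter share was 14.8% with starts within 250 bp, 37.0% within 1000 bp, 7.41% with tara starts only, and 11.1% with protein-coding starts only, the last chosen after seeing the data. The first pair lies inside the counting interval of the promoter share, 13.2 to 44.7%. The share overlapping leading peaks of both replicates was 100% with full replicate lists and 100% among those 3203. Sequences searched within 50 bp of the summit were found at 9 summits in place of 16.

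With 1 replicate left out, the number of summits ran from 27 to 29, the fullest window from 21 to 25, the rank from 1 to 1, the promoter share from 22.2% to 27.6%, the share in introns of tara from 51.7% to 51.9% (48.1% in the optimal list) and the median spacing from 1537.5 to 1953 bp. No paired analysis was possible because both samples belong to 1 group and no test between groups was run. Depth is unknown, and 27 peaks limit every share.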
